A study of Mus musculus with 22 samples.

Results

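The step from stage II to stage III is the middle of 3 steps in a 4-stage series of bone marrow eosinophil maturation, and it is described here in mice that received a control isotype antibody. It compares the 3 stage III libraries with the 2 stage II libraries of the isotype arm, chosen by their titles, which makes 5 of the 22 RNA-seq libraries. The other 17 libraries served to estimate the spread and, where named, as a comparison.

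Both groups came from the bone marrow of wild-type C57BL6 mice. All mice of the series, controls included, had been given 400 ng of recombinant murine IL-33 intraperitoneally on each of 7 days, which raises eosinophil numbers, so no group shows the step in untreated marrow. With the last IL-33 dose they began 3 daily injections of 400 µg of control isotype (the mice described here) or of anti-IL5, an antibody that neutralises IL-5. Cells carrying Ly6G, CD90.2, NK1.1 or CD45R were first removed, and the stages were then sorted with antibodies to CD117, CD200R3, PIR-A/B, Siglec-F, CD29, CD55 and F4/80 at a purity of 95% or higher. The labels do not give the gate of each stage, the age or sex of the mice, or whether libraries with equal replicate numbers share an animal, so p-values measure the spread between these libraries.

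Eosinophils arise in the marrow from dividing precursors under GATA and C/EBP transcription factors, and IL-5 expands and sustains the lineage. Precursors fill their granules with cationic proteins (major basic protein from Prg2, eosinophil peroxidase from Epx, eosinophil-associated ribonucleases from the Ear genes) while they still divide. Later cells leave the cell cycle and acquire the chemokine receptor CCR3, integrins and inhibitory receptors with which they leave the marrow and respond in tissue.

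Gene counts ran from 7161264 to 12499837 per library in the 5 libraries, and 12466 to 12956 genes had a count. The 10 most counted genes took a mean of 8.35% of counts at stage II and 6.60% at stage III, and no library measure separated the groups beyond the smallest p that 2 against 3 libraries allow (exact permutation test, two-sided, p = 0.1). The 2 stage II libraries differed from each other by a median of 0.48 log2 units per gene, more than any other pair within a group, while stage III pairs differed by 0.27 to 0.38 and stage II from stage III by 0.61 to 0.82. Stage III replicate 3 was the nearest of its group to both stage II libraries (0.65 and 0.61), and it stood apart in several gene groups that are named with their values. Library serial numbers in the deposited names put stages I and II in 1 run of numbers and stages III and IV in another. What the serials mark is not stated, and it cannot be told apart from the step.

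The 6 eosinophil markers checked were all detected in the 5 libraries. Prg2, Epx, Ear2, Siglecf and Il5ra were at 196.7 CPM (Il5ra) or higher in each library, and Ccr3 was lowest, at 31.2 CPM in a stage II library (CPM, counts per 1000000 gene counts on library sizes scaled by the trimmed mean of M-values). Hba-a1, Hbb-bs, Cd3e, Klrb1c, Mcpt4, Tpsb2 and Cdh5, which define red cells, T and NK cells, mast cells and endothelium, had 0 counts in all 5. Alas2 of red cells had 34 and 19 counts over stages II and III, Cma1 of mast cells 1 and 10, and Cxcl12 of stroma 6 and 14. The T cell genes Cd3g and Cd4 had 0 and 10 counts and 18 and 0 counts. The erythroid gene list summed to 167 to 191 CPM at stage II and 78.2 to 139 CPM at stage III. The 0 counts of Hba-a1 and Hbb-bs therefore do not show that red cell genes were silent. Markers of other myeloid cells were not near 0: Ly6c2 of monocytes ranged from 1313 to 2658 CPM over the 5 libraries, and Csf1r from 24.7 to 281 CPM. Ltf of neutrophils ranged from 160 to 581 CPM and Camp from 10.3 to 508 CPM, and Fcer1a of basophils from 35.5 to 106 CPM. The markers therefore do not show eosinophils alone, and the part of other cells in the results was not tested.

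Promoter sequences are shown first, for genes of lists that fell or rose together, with short motifs known for such genes. RefSeq start sites on GRCm38.p6, the build of the counts, were matched by symbol, and the 250 bases before the start were searched on both strands. The E2F motif forms TTCCCGCC, TTTCCCGC, TTTGGCGC and TTGGCGGG, which can overlap one another, were in 19 of 54 matched S phase genes (35.2%), in 3.42% of all 27025 promoters and in 6.54% of the 9792 promoters of genes tested here. Both shares follow in that order for each motif. The cell cycle homology region, TTTGAA or TTCGAA, was in 26 of 65 matched G2/M genes (40%) against 17.4% and 12.3%, and CCAAT was in 47 of the 65 (72.3%) against 34.5% and 37.2%. The endoplasmic reticulum stress element, CCAAT followed by any 9 bases and CCACG, which overlaps the CCAAT motif, was in 9 of 47 secretory pathway genes (19.1%) against 0.122% and 0.184%. The interferon-stimulated response element, GAAA, any 2 bases and GAAA, was in 15 of 32 interferon genes (46.9%) against 3.04% and 2.68%. The E-box CACGTG was in 4 of 53 ribosome biogenesis genes (7.55% against 6.05% and 8.57%, so the share was near that of other promoters), and the GATA forms AGATAA and TGATAA were in 2 of 8 granule protein genes (25% against 17% and 9.62%), a list that did not move together. A match is a description of letters and not a bound site.

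The windows below show the E2F form in capitals for S phase genes that fell, each on the minus strand of its chromosome (Mcm7 chr5:138172015-138172074, Mcm6 chr1:128359782-128359841, Slbp chr5:33652642-33652701).
Mcm7: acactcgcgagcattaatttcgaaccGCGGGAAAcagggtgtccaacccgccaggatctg
Mcm6: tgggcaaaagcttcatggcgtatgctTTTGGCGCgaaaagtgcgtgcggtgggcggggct
Slbp: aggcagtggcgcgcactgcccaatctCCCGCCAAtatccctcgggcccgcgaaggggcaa

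The next windows show the cell cycle homology region in capitals for G2/M genes that fell (Cks1b chr3:89418336-89418395 on the minus strand, Cdca5 chr19:6085037-6085096 and Bub3 chr7:131560300-131560359 on the plus strand).
Cks1b: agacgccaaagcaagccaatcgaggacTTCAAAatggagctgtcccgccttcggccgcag
Cdca5: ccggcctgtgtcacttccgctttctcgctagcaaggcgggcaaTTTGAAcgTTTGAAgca
Bub3: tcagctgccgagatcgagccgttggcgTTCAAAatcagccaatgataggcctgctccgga

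The last windows show the stress element of 2 chaperone-pathway genes that fell (Pdia6 chr12:17266470-17266529, Creld2 chr15:88819499-88819558, both plus strand) and the interferon element of 2 interferon genes that rose (Trim30a chr7:104465195-104465254 on the minus strand, Gbp7 chr3:142530258-142530317 on the plus strand), each in capitals.
Pdia6: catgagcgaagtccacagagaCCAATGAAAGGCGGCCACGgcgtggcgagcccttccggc
Creld2: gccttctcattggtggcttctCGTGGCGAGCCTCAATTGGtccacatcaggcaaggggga
Trim30a: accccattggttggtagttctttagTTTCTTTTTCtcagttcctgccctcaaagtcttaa
Gbp7: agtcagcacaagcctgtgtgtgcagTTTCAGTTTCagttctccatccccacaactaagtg

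Across the step, genes of DNA replication, mitosis, ribosome building and nucleotide synthesis fell, and genes of receptors, integrins, the actin cytoskeleton and cell cycle exit rose, while the main granule protein genes did not pass the test. Of 12387 genes tested, 4591 differed (37.1%; edgeR quasi-likelihood test over all genes, Benjamini-Hochberg adjusted p under 0.05), 2355 higher at stage III (19.0%) and 2236 lower (18.1%). Of these, 1378 rose and 1343 fell by at least 2-fold, and the median size of a called change was 1.15 on the log2 scale. Fitted on the 5 libraries alone, 2951 genes were called. The stage II and stage III libraries did not overlap for 6506 of the genes tested (52.5%), so a lack of overlap was common. The level plot spreads these calls over the range of expression.

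**Figure D1:**
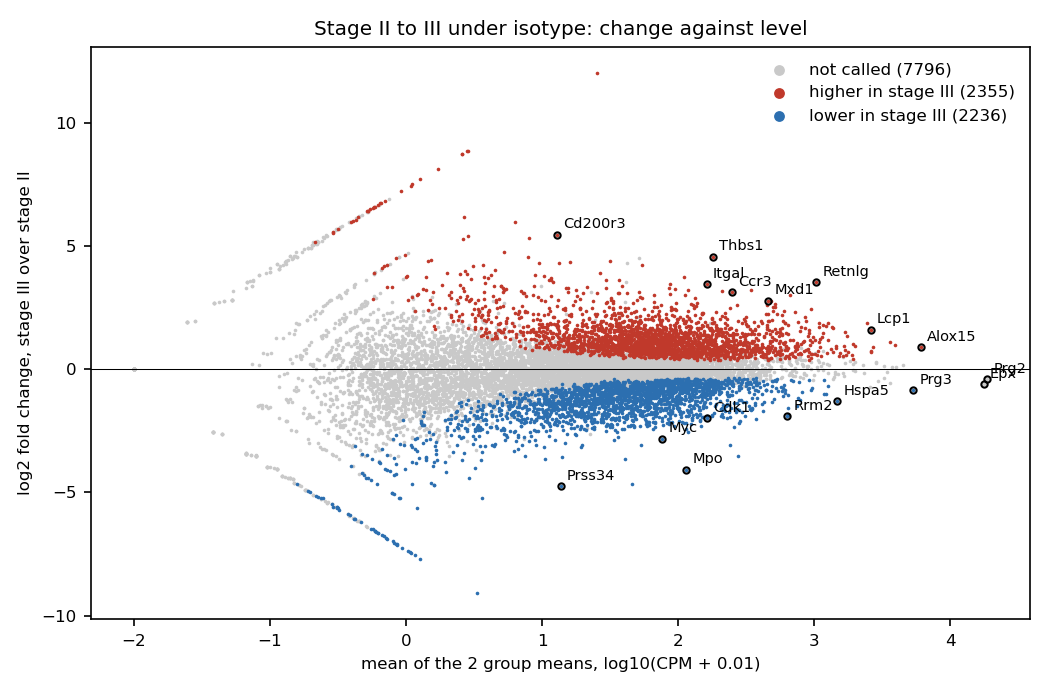
Each point is 1 of the 12387 genes tested, with the mean of both group means on the x axis (log10 of CPM plus 0.01) and the log2 fold change of stage III over stage II on the y axis. Red points (2355) were called higher, blue points (2236) lower and grey points were not called. Prg2 and Epx sit at the far right near 0, and the straight lines of points at the left are genes with no or few counts in 1 group.

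The largest rises included genes that stage II cells barely expressed. Tlr13, an endosomal receptor for bacterial ribosomal RNA (chrX:106143204-106160493, mm10, plus strand), had 0 counts in both stage II libraries and 34.8, 84.2 and 32.4 CPM at stage III. Against a floor of 3 counts over the stage II group that is at least 289.4-fold higher (1537 counts at stage III; adjusted p = 2.8e-05). Its mean was 0.52 CPM at stage I and 261.2 CPM at stage IV. Samd11 had 3 counts at stage II and 359 at stage III, a ratio of 67.6 (counting interval 22.95 to 329.4). Rgs3, a brake on signalling through G protein-coupled receptors, went from 0.68 and 0.11 CPM to 13.2, 24.9 and 8.51 CPM (log2 fold change 5.34, SE 0.67, adjusted p = 5.6e-06). Stage III libraries lay above both stage II libraries for each of these genes, which was a condition for naming them here.

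Thbs1, which encodes the matrix glycoprotein thrombospondin-1 (chr2:118111876-118127133, plus strand), read 25.3 and 4.41 CPM at stage II and 397.8, 267.3 and 375.4 CPM at stage III (log2 fold change 4.57, SE 0.98, adjusted p = 0.0018). Its stage IV mean was lower, at 108.0 CPM, so the 4 stages peak at III. Other large rises were Tinagl1 (log2 4.20), the adhesion molecule gene L1cam (3.90), the transglutaminase gene Tgm2 (3.81), Unc5c (4.75), Fam160a1 (4.29) and Asprv1 (3.76). Chil5 (4.55) and Gbp9 (4.35) also rose and belong to families of near-identical genes between which reads can be split. By difference in CPM the leading rises were Alox15, Ccl6, Lcp1, Actb and Ngp (the call of Alox15 is lost without stage II replicate 2, adjusted p = 0.16, and that of Ngp without stage II replicate 2 or stage III replicate 2, adjusted p = 0.27 and 0.12), and the leading falls were Prg3, Hspa5, Hmgn2, Hmgb2 and Rrm2.

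The largest falls mixed genes of neighbouring lineages with growth genes. Prss34, a basophil protease gene, fell from 34.6 and 18.0 CPM to 1.27, 0.17 and 1.62 CPM (log2 fold change -4.75, SE 0.79, adjusted p = 0.00022). Fkbp11, a peptidyl-prolyl isomerase gene of secretory cells, went from 13.8 and 25.5 CPM to 0.76, 1.58 and 2.26 CPM (log2 -3.65, adjusted p = 1.6e-06). Shmt1 (log2 -3.15), a serine hydroxymethyltransferase of one-carbon metabolism, Ms4a3 (-3.09), a granulocyte progenitor gene, Gemin4 (-3.14), Psmc3ip (-3.08), Trub1 (-3.23), Pter (-3.32) and Fgf3 (-3.10) fell as well.

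Of 8 granule protein genes tested 1 was higher and 1 lower, beside 19.0% and 18.1% of all genes, with a median log2 fold change of -0.28. The summed level of the 10 genes for granule proteins was 62450 and 45443 CPM at stage II and 38758, 32211 and 42602 CPM at stage III, lower in each stage III library than in both stage II libraries. That sum was not tested. Prg2 (chr2:84980461-84983632, plus strand) read 24833 and 17679 CPM at stage II and 16981, 13090 and 18120 CPM at stage III, and the groups overlapped (log2 -0.40, SE 0.31, adjusted p = 0.32). Epx (chr11:87864000-87875536, minus strand) read 24372 and 18323 CPM and then 14246, 12049 and 15324 CPM, with no overlap but an adjusted p of 0.19 (log2 -0.62). At stage IV their means were 1789 and 388.8 CPM. Prg3, the second major basic protein gene, fell from 8306 and 5549 CPM to 3570, 3137 and 4691 CPM (log2 -0.87, adjusted p = 0.021). That call is lost without stage II replicate 1 and without stage III replicate 1 or 2 (adjusted p = 0.29, 0.063 and 0.085). Rnase6 rose from 63.5 and 31.1 CPM to 162.9, 243.7 and 178.9 CPM (log2 2.05, adjusted p = 7.8e-06). Ear1, Ear2 and Ear6 gave log2 values of -0.12, -0.16 and -0.40 with none called, and these copies share sequence, so their reads can be split.

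Sort markers come next because they helped to define the stages, so their levels describe the gates and are no independent finding. Of 9 tested, 7 were higher at stage III (19.0% of all genes were), with a median log2 of 1.79. Cd200r3 read 0.82 and 0.34 CPM at stage II and 19.9, 16.4 and 39.3 CPM at stage III, Adgre1 (F4/80) 369.5 and 211.0 against 1109, 1300 and 592.3 CPM, and Pirb 204.7 and 117.4 against 731.8, 821.3 and 690.5 CPM. Itgb1 (CD29; log2 1.44), Siglecf (0.59, lost on the 5 libraries alone), Pira2 (2.77) and Pira6 (3.73) were also higher, the Pira genes being near-identical copies. Kit, the stem cell factor receptor CD117, read 16.2 and 55.7 CPM against 10.7, 18.9 and 16.1 CPM and did not pass (log2 -1.24, adjusted p = 0.059), nor did Cd55 (0.39). Kit was called lower without stage II replicate 1 (adjusted p = 0.010), with RLE size factors (0.048), on the 11 isotype libraries (0.037) and with DESeq2 (0.036).

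Genes for receptors of chemotactic and lipid mediators rose more often than they fell, while 19.0% of all genes were higher and 18.1% lower. The part of other myeloid cells in these rises was not tested. Among 26 genes for chemotactic and lipid mediator receptors, 16 were higher and 0 lower, with a median log2 of 1.62 (1.51 with 2 genes that had 0 counts at stage II set to their bound), against a median of 0.00 over all genes. Ccr3, the eotaxin receptor (chr9:124021972-124031689, plus strand), read 70.6 and 31.2 CPM at stage II and 322.0, 670.2 and 336.9 CPM at stage III (log2 3.13, SE 0.45, adjusted p = 2.6e-05). Every stage III library exceeded both stage II libraries, and the means over stages I to IV ran from 4.89 CPM at stage I to 2719 CPM at stage IV. Genes for complement receptors C3ar1 (log2 3.29), C5ar2 (3.18) and C5ar1 (2.37), for the platelet-activating factor receptor Ptafr (2.46), for Cxcr2 (2.37) and for the prostanoid receptors Ptgir (2.22) and Ptger4 (1.78) were higher. The call of Cxcr2 was lost without stage II replicate 1 (adjusted p = 0.20) or stage III replicate 3 (0.14). The retention receptor gene Cxcr4 was called at 0.98, a call lost without either stage II library (0.21 and 0.091) or stage III replicate 1 or 3 (0.087 and 0.070), and Ccr2 (-1.44) and Cysltr1 (-0.69) were not called.

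Cytokine receptor genes gave 14 higher and 1 lower of 33 (median log2 0.79), beside 19.0% and 18.1% of all genes. The common beta chain of the IL-5, IL-3 and GM-CSF receptors, Csf2rb, read 155.2 and 254.1 CPM and then 387.5, 552.9 and 382.1 CPM (log2 1.11, SE 0.22, adjusted p = 0.00054). Its IL-3-specific relative Csf2rb2 went from 11.8 and 36.8 CPM to 107.4, 132.6 and 72.5 CPM (log2 2.09, adjusted p = 0.00022), and the 2 genes are close copies. The IL-5 receptor alpha chain, Il5ra, read 196.7 and 243.5 CPM against 238.5, 343.2 and 219.1 CPM, groups that overlap (log2 0.28, adjusted p = 0.31). Tgfbr2 (log2 2.44), Il17ra (2.01), Csf1r (2.29), Il1r2 (1.77), Ifnar1 (1.75), Ifngr2 (1.57) and Il3ra (1.36) rose. Il1r2 was not called without stage II replicate 2 (adjusted p = 0.11) or stage III replicate 3 (0.055). Flt3 was the member called lower, with 17 counts at stage II and 1 at stage III, and that call was lost when any of the 5 libraries was left out (adjusted p = 0.052 to 0.14). The IL-33 receptor gene Il1rl1 was called at log2 0.89 (adjusted p = 0.049), a call lost without stage II replicate 1 (adjusted p = 0.31) and without any stage III library (0.051 to 0.12).

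Of 21 adhesion genes 15 rose and 0 fell (median log2 1.35), beside 19.0% and 18.1% of all genes. Itgal, the LFA-1 alpha chain (chr7:127296260-127335138, plus strand), stood at 26.6 and 28.3 CPM at stage II and at 278.8, 434.8 and 179.9 CPM at stage III (log2 3.44, SE 0.34, adjusted p = 5.8e-07). Itgam, the Mac-1 alpha chain, stood at 233.4 and 357.3 CPM and then at 1611, 2142 and 1067 CPM (log2 2.44, adjusted p = 2.5e-06). Their shared partner Itgb2 (1.50), Itgb3 (3.03), Itgb7 (2.37), Itga6 (2.25), Cd44 (1.69) and Selplg (1.35) rose too. For both Itgal and Itgam the lowest stage III library was replicate 3.

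Inhibitory and paired receptor genes were higher for 18 of 26 and lower for 0 (median log2 0.86), beside 19.0% and 18.1% of all genes. Without stage II replicate 2 the count was 9. Lilra6 (log2 2.87), Cd200r4 (2.53), Sirpa (2.25), whose product binds CD47, and Cd200r1 (1.85) were among them. The stages were sorted with antibodies to PIR-A/B and CD200R3, so rises of genes of these receptor families may describe the gates and are no independent finding. Sirpa read 137.4 and 169.2 CPM against 717.0, 909.3 and 562.7 CPM (SE 0.21, adjusted p = 3.7e-07), with no overlap.

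Genes for mediators were mixed, and their counts stand beside 19.0% of all genes higher and 18.1% lower. In the lipid mediator enzyme list, 6 of 13 rose and 1 was called lower (median log2 0.61), and 2 rose without stage II replicate 2 and 3 without stage III replicate 1. The lower one, Ptgds, had 7 counts at stage II and 0 at stage III, and its call was lost when any of the 5 libraries was left out (adjusted p = 0.052 to 0.14). Alox15, the 12/15-lipoxygenase of mouse eosinophils, read 5199 and 3319 CPM and then 8404, 9037 and 6162 CPM (log2 0.89, adjusted p = 0.012; lost without stage II replicate 2 and on the 5 libraries alone, adjusted p up to 0.16). Alox5 (1.29), the first enzyme of leukotriene synthesis, and Pla2g4a (0.79) rose in each alternative. Among 24 immune mediator and costimulation genes, 9 rose and 2 fell, Chil3 and Vegfa (median log2 1.55), and 14 rose without stage II replicate 1, where Chil3 lost its call (adjusted p = 0.065). Vegfa lost its call without stage II replicate 2 (0.12). The interleukin-1 receptor antagonist gene Il1rn (3.29), Cd86 (2.82), the chemokine gene Ccl6 (1.85) and Cd274 (1.30) rose. The call of Cd86 was lost without stage II replicate 2 (adjusted p = 0.20) or stage III replicate 2 (0.071), and that of Cd274 without either stage II library (0.20 and 0.058) or stage III replicate 1 or 2 (0.075 and 0.074). Cd80 had 2 counts at stage II and 86 at stage III, a ratio of 24.3 (interval 6.52 to 203.8). Il4 rose from 101.7 and 67.7 CPM to 108.7, 119.8 and 124.5 CPM (log2 0.48, adjusted p = 0.033), a call lost without stage II replicate 2 (adjusted p = 0.43) and without stage III replicate 2 or 3 (0.072 and 0.073). NADPH oxidase and antioxidant genes gave 10 higher and 2 lower, Prdx1 and Txn1, of 21 (median log2 0.26), with Cybb (1.67) and Ncf1 (1.79), which make the respiratory burst, and Cat (1.73) among the rises. Txn1 was not called without stage II replicate 1 (adjusted p = 0.16) or stage III replicate 1 or 2 (0.066 and 0.054).

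**Figure D2:**
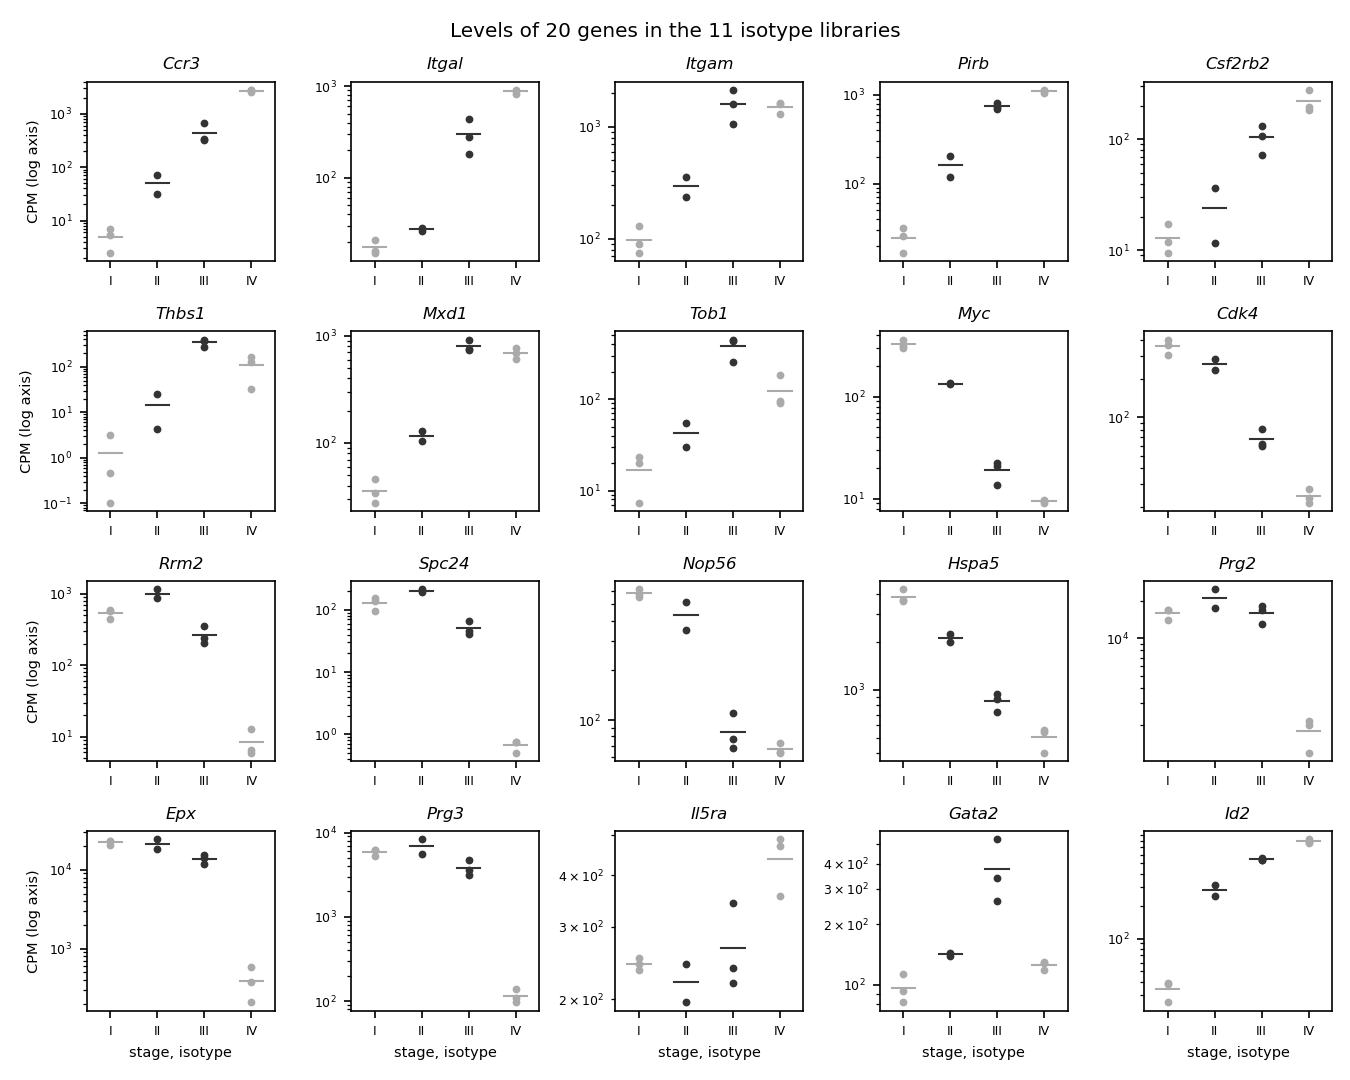
Each panel plots 1 gene in the 11 isotype libraries by stage, in CPM on a log axis that differs between panels. Points are libraries, bars are group means, and stages II and III are drawn dark. Ccr3, Itgal and Pirb are higher at stage III than at stage II in every library, Myc, Cdk4 and Nop56 are lower, and Prg2 and Il5ra overlap.

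Lineage transcription factor genes gave 17 higher and 4 lower of 34 (median log2 0.74), or 11 higher without stage II replicate 2, 0 lower without stage II replicate 1 and 2 lower without stage III replicate 1 or 2. Gata2 (chr6:88193891-88207032, plus strand) read 139.8 and 143.6 CPM at stage II and 341.4, 260.1 and 529.0 CPM at stage III (log2 1.41, SE 0.26, adjusted p = 0.00023), and its stage IV mean was 125.7 CPM. Gata1, the factor that commits cells to the lineage, did not pass, with 363.1 and 265.9 CPM against 305.6, 361.0 and 327.8 CPM (log2 0.08, adjusted p = 0.77). Cebpe (0.54) and Spi1 (0.61) were called higher by small margins. Cebpe lost its call without either stage II library or stage III replicate 1 (adjusted p up to 0.14), and Spi1 without stage II replicate 2 (0.40) or stage III replicate 1 or 2 (0.077 and 0.051). Id2, whose product blocks DNA binding by helix-loop-helix partners, rose from 314.9 and 245.5 CPM to 533.5, 538.0 and 552.8 CPM (log2 0.95, adjusted p = 0.0005). Irf5 (2.68), Bcl6 (2.48), Nfil3 (1.50) and Runx3 (1.31) rose, and Irf8, Zfpm1, Cebpd and Xbp1 (-0.58), the factor of the unfolded protein response, fell. Without stage II replicate 1 Xbp1 (adjusted p = 0.081), Irf8 (0.35), Zfpm1 (0.13) and Cebpd (0.22) were not called. Irf8 was also lost without stage III replicate 1 or 2 (0.14 and 0.13), Cebpd without stage III replicate 2 (0.058), and Zfpm1 without stage II replicate 2 or stage III replicate 1 or 3 (0.061 to 0.064). Of 23 stem and progenitor genes 7 fell and 3 rose (median log2 -0.71), with 2 falls and 1 rise without stage II replicate 2 and 4 falls without stage III replicate 1. Cdk6 (-1.03) and Angpt1 (-1.82) fell, both lost without stage II replicate 2 (adjusted p = 0.18 and 0.084) and Cdk6 also without stage III replicate 1 (0.079), while Lmo2, Lmo4 and Meis1 rose, all lost without stage II replicate 2 (0.21, 0.064 and 0.055) and Lmo2 also without stage II replicate 1 or stage III replicate 1 or 2 (0.074 to 0.15). Cd34 (-0.58, adjusted p = 0.17) and Myb (-0.39, adjusted p = 0.33) did not pass. Beside both lists, 19.0% of all genes were higher and 18.1% lower. The shares of lineage factor genes called lower and of progenitor genes called higher were below these.

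Cell division genes fell almost as a whole. Of 71 genes for S phase and DNA replication 65 were lower and 1 higher (median log2 -1.71; 18.1% of all genes were lower). Of 77 G2/M genes 67 were lower and 1 higher (-1.50), and of 56 replication-dependent histone genes 48 were lower and 0 higher (-1.88). The members called higher were E2f2 (1.02), lost without stage II replicate 1 (adjusted p = 0.18), and Lbr (0.89), lost without stage II replicate 1 (0.20) or stage III replicate 2 (0.051). Rrm2, a subunit of ribonucleotide reductase, read 1150 and 863.5 CPM at stage II and 237.5, 207.4 and 353.4 CPM at stage III (log2 -1.92, SE 0.25, adjusted p = 7.9e-06). Cdk1, the mitotic kinase, read 250.5 and 267.7 CPM against 41.5, 59.6 and 95.5 CPM (log2 -1.98, adjusted p = 2.9e-05). The summed level of the S phase list was 11145 and 10623 CPM at stage II and 3837, 3973 and 4419 CPM at stage III, so the genes were reduced but not silent. Stage IV means were far lower still, such as 8.46 CPM for Rrm2 and 1.46 CPM for Cdk1.

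Within these lists the 4 largest falls by list were those of the clamp loader gene Rfc4 (log2 -2.44), the exonuclease gene Exo1 (-2.37), Rad51ap1 (-2.31) and the polymerase gene Pole2 (-2.30), and in mitosis of Cit (-2.33), Kif20b (-2.20), Sgo1 (-2.11) and Smc2 (-2.06). Each was lower in all 3 stage III libraries than in both stage II libraries, and 52.5% of all genes tested had no overlap either way. Mki67 fell by 1.28 on the log2 scale, from 188.2 and 390.4 CPM to 110.9, 108.6 and 138.8 CPM, and lost its call without stage II replicate 2 (adjusted p = 0.21). Stage III replicate 3 held the highest value of its group for 44 of 71 S phase genes, 65 of 77 G2/M genes and 54 of 56 histone genes. Without it the lists gave 64, 66 and 53 lower. Without stage II replicate 2 the list medians were smaller in size, at -1.64, -1.16 and -1.63. Without stage II replicate 1 they were -1.675, -1.79 and -2.05. Histone genes are near-identical copies, and most of their transcripts lack the poly(A) tail that this cDNA kit primes on, so their levels may not reflect total message.

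Genes of G1 moved less uniformly: 9 of 16 fell and 0 rose (median log2 -1.05), with 3 falls without stage II replicate 2 and 5 without stage III replicate 1. Over all genes, 18.1% were lower and 19.0% higher. Cdk4 (chr10:127063534-127067920, plus strand) fell from 284.6 and 233.8 CPM to 59.2, 62.3 and 80.8 CPM (log2 -1.94, SE 0.18, adjusted p = 3.7e-07). Ccnd3, a D cyclin partner of Cdk4, did not pass (564.8 and 387.2 against 726.7, 698.1 and 500.5 CPM; log2 0.43, adjusted p = 0.12), nor did Ccnd2 (-1.07, adjusted p = 0.12). Ccnd3 was called higher without stage II replicate 1 (0.035) or stage III replicate 3 (0.041), and Ccnd2 lower without stage III replicate 3 (0.0024). With the replicate number as a block both were called (0.014 and 0.0080).

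Inhibitors of the cycle and quiescence genes rose for 17 of 28 and fell for 4 (median log2 0.87; 2 falls without stage II replicate 1). Among all genes 19.0% rose and 18.1% fell. The anti-proliferative gene Tob1 read 55.4 and 30.1 CPM and then 449.1, 436.0 and 253.5 CPM (log2 3.15, SE 0.42, adjusted p = 1.2e-05). Mxd1, which competes with MYC for MAX (chr6:86647042-86669161, minus strand), read 129.4 and 105.3 CPM against 752.8, 920.9 and 742.0 CPM (log2 2.78, SE 0.21, adjusted p = 1.2e-07), and Max itself rose (2.52). Cdkn2b (2.98), Rbl2 (1.60), Foxo3 (1.30) and Cdkn1b (0.88) rose, the call of Cdkn1b being lost without stage II replicate 2 (adjusted p = 0.21) or stage III replicate 1 (0.054) and that of Foxo3 without stage II replicate 2 (0.061). The 4 that fell were Cdkn1c, Cdkn2c, Cdkn1a and Rbl1, the last a pocket protein gene that is itself induced at S phase. Without stage II replicate 1 (adjusted p = 0.62) or stage III replicate 1 or 2 (0.064 and 0.13) Cdkn1a was not called, nor was Cdkn1c without stage II replicate 1 (0.21) or stage III replicate 3 (0.066). Cdkn2d, another inhibitor of CDK4, did not pass (log2 0.18, adjusted p = 0.44).

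Myc, whose product drives ribosome building and metabolism (chr15:61985391-61990374, plus strand), fell from 132.0 and 137.0 CPM to 13.6, 20.9 and 22.4 CPM (log2 -2.82, SE 0.37, adjusted p = 9.2e-06). Its stage means ran from 326.4 CPM at stage I to 9.45 CPM at stage IV. Of 60 ribosome biogenesis genes 45 fell and 0 rose (median log2 -1.17), beside 18.1% and 19.0% of all genes. Their summed level was 4379 and 4318 CPM at stage II against 1980, 1916 and 2086 CPM at stage III. The largest falls of this list were in nucleolar genes. Nop56, a core protein of box C/D ribonucleoproteins (chr2:130274430-130279313, plus strand), fell from 514.2 and 351.2 CPM to 77.5, 68.4 and 110.0 CPM (log2 -2.34, SE 0.20, adjusted p = 3.7e-07), beside Gnl3 (-2.74), Nop58 (-2.22) and Gar1 (-2.17).

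Nucleotide and one-carbon genes fell for 30 of 32 and rose for 0 (median log2 -1.63), with Phgdh (-2.87), Mthfd1 (-2.26) and Dut (-2.13) after Shmt1. For this and the next lists, 18.1% of all genes fell and 19.0% rose. Among translation factors and aminoacyl-tRNA synthetases 22 of 47 fell and 0 rose (-0.45), with Eif4e, the cap-binding protein gene, at -1.10 and Eif2b3 at -1.27. Cytosolic ribosomal protein genes fell for 49 of 83 (-0.53), with Rpl12 at -1.44 and Rps15 at -1.06. This count was 24 to 30 without stage II replicate 1 or 2 or stage III replicate 1 or 2, and stage III replicate 3 held the highest stage III value for 80 of the 83. Ribosomal protein genes have many processed pseudogenes that can take part of their reads.

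Nuclear genes for mitochondrial proteins moved in the same direction. Their counts, and those of proteasome genes, stand beside 18.1% of all genes lower and 19.0% higher. Mitochondrial ribosomal protein genes fell for 54 of 78 (median log2 -0.76), or for 29 without stage II replicate 1, and oxidative phosphorylation subunit genes for 44 of 77 (-0.50), or for 16 without stage II replicate 1, 28 without stage III replicate 1 and 26 without stage III replicate 2. Neither list had a member called higher. Mrpl12 (-1.74) and Ndufab1 (-1.23) had the largest called falls in them. Proteasome genes fell for 16 of 46 (-0.35), and for 5 without stage II replicate 1 and 10 without stage III replicate 1.

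The secretory pathway and unfolded protein response list fell for 30 of 58 and rose for 2, Sel1l and Derl1 (median log2 -0.51), with 19 falls without stage II replicate 2. Sel1l was not called without stage II replicate 1 (adjusted p = 0.49) or stage III replicate 1 or 2 (0.065 and 0.20). Across all genes 18.1% fell and 19.0% rose. Hspa5, the main chaperone of the endoplasmic reticulum (chr2:34771970-34777547, plus strand), fell from 2245 and 1987 CPM to 881.1, 722.4 and 947.8 CPM (log2 -1.32, SE 0.21, adjusted p = 6.9e-05). Creld2 (-1.81), Manf (-1.61), Sdf2l1 (-1.60) and Pdia6 (-1.50), which act in protein folding there, fell in each alternative fit.

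Glycolysis and lactate genes went the other way, with 14 of 28 higher and 2 lower (median log2 0.57; 9 higher without stage II replicate 2). Slc2a3, the GLUT3 glucose transporter gene, rose from 167.2 and 144.6 CPM to 819.4, 1161 and 659.2 CPM (log2 2.50, SE 0.28, adjusted p = 1.6e-06). The lactate exporter gene Slc16a3 rose (1.76) and its relative Slc16a1 fell (-2.22), a call lost without stage II replicate 2 (adjusted p = 0.15). Tpi1 was the other member called lower, lost without either stage II library (0.085 and 0.14) or stage III replicate 1 or 2 (0.13 and 0.082). Of 32 cholesterol synthesis genes 9 rose, beside 19.0% of all genes, and 22 were not called (median log2 0.49). On the 5 libraries alone 5 of 31 rose. The 1 that fell, Acat2, lost its call without stage II replicate 1. Srebf2 (1.78), the factor that controls these genes, and Hmgcs1 (1.44) were higher.

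**Figure D3:**
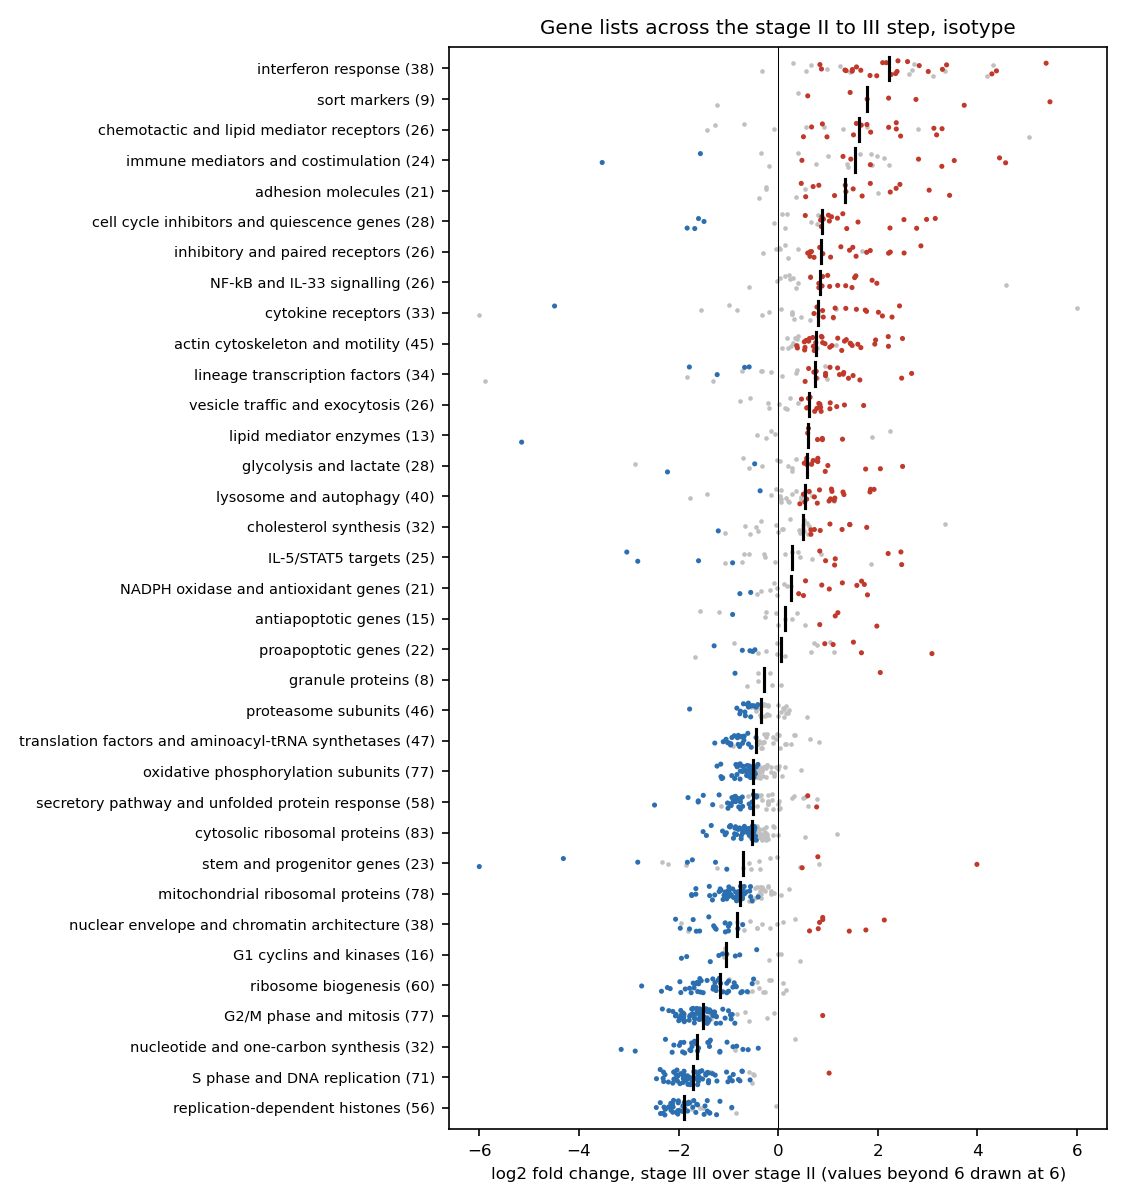
Each row is a gene list, with its number of tested genes in parentheses, ordered by the median log2 fold change of stage III over stage II (black bar). Red points were called higher, blue points lower and grey points were not called. Histone, S phase, nucleotide, G2/M and ribosome biogenesis lists lie left of 0 with few exceptions, and interferon, receptor and adhesion lists lie right of it.

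Genes of the motile and degradative machinery rose more often than they fell, while 19.0% of all genes were higher and 18.1% lower. Of 45 actin and motility genes 33 were higher and 0 lower (median log2 0.75). Vcl, which links integrins to actin, read 43.8 and 101.2 CPM and then 462.6, 535.4 and 230.8 CPM (log2 2.50, SE 0.33, adjusted p = 8.5e-06), and Myh9 (2.21), Vasp (2.21), Capg (1.96) and Lcp1 (1.60) rose too. Lysosome and autophagy genes were higher for 19 of 40 and lower for 1, Gusb (median log2 0.54; lost without stage II replicate 1, adjusted p = 0.24, or stage III replicate 2 or 3, 0.10 and 0.057), with Ctsd (1.85), Lipa (1.92), Ulk1 (1.84) and their regulator gene Tfeb (1.32). Vesicle traffic genes rose for 17 of 26 (0.62; 11 without stage II replicate 2), led by Stx11 (1.72) and Rab27a (1.33), which serve granule release. Nuclear envelope and chromatin genes were lower for 17 of 38 and higher for 8 (median log2 -0.82), the share higher being near that of all genes. Without stage III replicate 2, 4 were higher. The heterochromatin genes Cbx5 (-2.06) and Suv39h1 (-1.78) and Ezh2 (-1.97) fell, and the genome organiser gene Satb1 rose (2.13).

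Genes downstream of IL-5 and STAT5 showed no common direction, with 7 of 25 higher and 4 lower (median log2 0.28; 19.0% and 18.1% of all genes were higher and lower). The count of rises was 3 without stage II replicate 2 and 4 without stage III replicate 1, and that of falls was 2 without either stage II library or stage III replicate 1 and 1 without stage III replicate 2. Cish, a feedback inhibitor, was called higher (27.2 and 35.8 against 68.0, 90.5 and 48.8 CPM; log2 1.13, adjusted p = 0.031) but lost the call without either stage II library (adjusted p = 0.18 and 0.063) and without stage III replicate 1 or 2 (0.053 and 0.12). Socs2 (-0.29) and Pim1 (0.14) did not pass, and Socs3 (2.21) and Dusp5 (2.46; lost without stage II replicate 2, adjusted p = 0.091) were called higher, Socs3 losing the call when any of the 5 libraries was left out (0.061 to 0.23). Spry2, Myc, Cdkn1a and Bcl2 were the 4 called lower. Spry2 was lost without stage II replicate 2 (0.070) or stage III replicate 2 (0.056), and Cdkn1a without stage II replicate 1 (0.62) or stage III replicate 1 or 2 (0.064 and 0.13). Survival genes were also divided. Antiapoptotic genes gave 4 higher and 1 lower of 15 (0.13) and proapoptotic genes 5 higher and 5 lower of 22 (0.06; 2 lower without stage II replicate 1 and 3 without any other library). Mcl1, a survival gene that eosinophils depend on, rose from 322.7 and 289.5 CPM to 701.1, 599.9 and 729.2 CPM (log2 1.15, SE 0.25, adjusted p = 0.0011). Birc3 rose (1.98), and Bcl2 was called lower (-0.92, adjusted p = 0.045) with the call lost when any of the 5 libraries was left out (adjusted p = 0.078 to 0.20). Trp53inp1 (3.09), Fas (1.67) and Casp9 (1.51) rose and Cycs (-1.29) fell, whereas Bcl2l11, encoding BIM, did not pass (-0.88, adjusted p = 0.21). NF-kB and IL-33 signalling genes rose for 15 of 26 and fell for 0 (0.84), among them Nfkb2 (1.48) and Tnfaip3 (1.53; lost without either stage II library, adjusted p = 0.050 and 0.24, or stage III replicate 1, 0.071).

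Interferon response genes had a list median of 2.22. It was 1.22 with the replicate number as a block, and 2.13 with a gene at 0 counts in stage II set to its bound. Of 38 tested genes 24 were higher and 0 lower, beside 19.0% and 18.1% of all genes. The count depended on the libraries, stage III replicate 3 among them, and on the fit. It was 14 with limma-voom and on the 11 isotype libraries, 26 with the block and 27 with DESeq2. Oasl2, an interferon-induced gene, read 1.37 and 4.30 CPM at stage II and 12.5, 25.1 and 144.8 CPM at stage III (log2 4.38, SE 1.47, adjusted p = 0.029, and 0.12 without replicate 3, 0.18 and 0.098 without stage II replicate 1 and 2). Rtp4 read 3.70 and 4.41 against 5.98, 11.5 and 224.9 CPM without passing (adjusted p = 0.09). Replicate 3 held the highest stage III value for 35 of the 38 genes. Without it 11 genes were called (median 1.20), and without stage II replicate 1 or 2 there were 12. Other genes were high in all 3 stage III libraries: Ddx58, a sensor of viral RNA, read 25.2 and 27.6 CPM against 86.3, 101.0 and 124.9 CPM (log2 1.98, adjusted p = 5e-06). Trim30a (2.83), Irf9 (1.49) and Ifitm6 (2.10) were likewise above both stage II libraries in each stage III library.

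The summed level of the 41 interferon response genes was 1130 and 872.8 CPM at stage II and 1803, 2453 and 4492 CPM at stage III. Replicate 3 was also the highest isotype library at stage I (1829 CPM against 845 and 941.4 CPM) and at stage IV (3806 CPM against 1593 and 1827 CPM). Stage II has no isotype replicate 3, and the part of this in the step was not tested. Under anti-IL5 the sums were 1755 and 1242 CPM at stage II and 2742, 2838 and 2934 CPM at stage III, where no library stands apart.

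**Figure D4:**
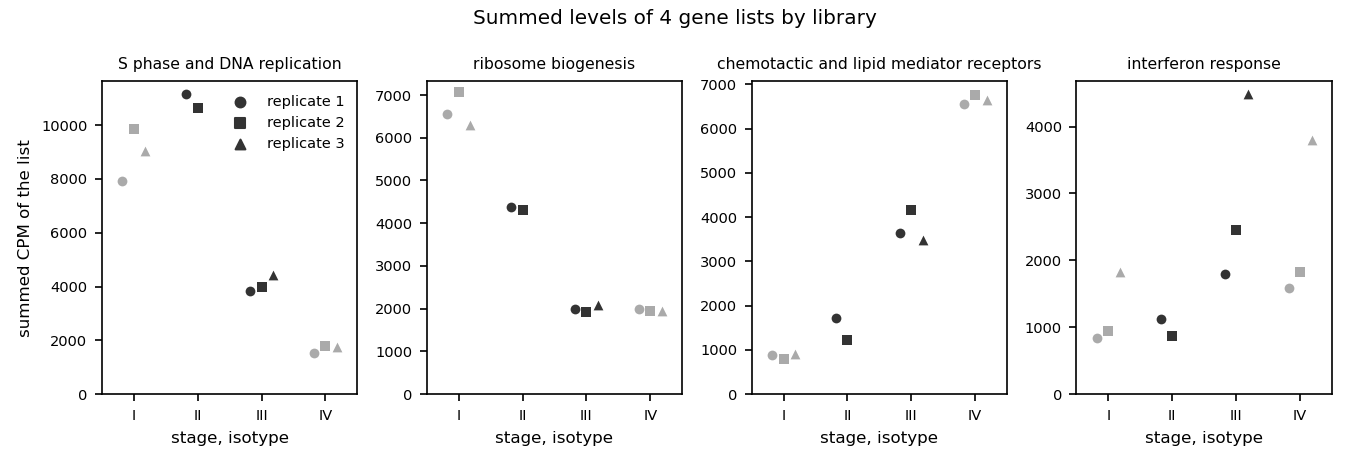
Summed CPM of 4 gene lists in the 11 isotype libraries by stage, with the replicate number as the symbol and stages II and III drawn dark. S phase and ribosome biogenesis sums drop from stage II to III in every library, receptor sums rise, and the interferon sum of replicate 3 (4492 CPM at stage III) lies above the other libraries of its stage at stages I, III and IV.

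Markers of other cells moved with the groups as follows, and their part in the results was not tested. Their counts stand beside 19.0% of all genes higher and 18.1% lower. Azurophil granule genes of early neutrophils and monocytes fell for 7 of 11 (median log2 -3.09; 4 without stage II replicate 1), with a summed level of 1361 to 1863 CPM at stage II and 544 to 831 CPM at stage III. Mpo read 232.0 and 200.9 CPM and then 23.3, 2.71 and 13.3 CPM (log2 -4.08, SE 0.99, adjusted p = 0.0044), and Fcnb (-4.68), Elane (-3.65) and Prtn3 (-3.58) fell. Without stage II replicate 1 the calls of Fcnb (adjusted p = 0.059), Elane (0.28) and Prtn3 (0.15) were lost, and without stage III replicate 1 or 2 those of Elane (0.079 and 0.11) and Prtn3 (0.063 and 0.086). Mature neutrophil genes split, with 7 of 18 higher and 4 lower (0.39, and -0.26 without stage III replicate 3) and sums of 4625 to 6603 against 9132 to 13240 CPM. Ngp (0.96), Mmp9 (3.71), Retnlg (3.53) and Ly6g (3.12; 2.33 and 4.08 against 17.1, 45.4 and 21.8 CPM) rose, whereas Camp (-3.08), Wfdc21, Lcn2 and S100a8 fell and Ltf (-0.52) was not called. Without stage II replicate 1 the calls of Mmp9 (adjusted p = 0.061) and Camp (0.061) were lost, and that of Ngp without stage II replicate 2 (0.27) or stage III replicate 2 (0.12). No member was called lower without stage II replicate 1, and 2 were without stage II replicate 2 or stage III replicate 1 or 2. Lcn2 was lost in each of these 4 fits (0.085 to 0.18), as was S100a8 (0.062 to 0.14), and Wfdc21 was lost without stage II replicate 1 (0.088) or stage III replicate 2 (0.060). Cells carrying Ly6G had been depleted before the sort.

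For the lists of this paragraph too, 19.0% of all genes tested were higher and 18.1% lower. Basophil and mast cell genes gave 2 higher (Cd200r3, also a sort marker, and Il4) and 2 lower (Prss34, Mcpt8) of 13. Their median log2 was -0.02, with sums of 1502 to 2189 against 1274 to 1913 CPM. Mcpt8 fell (-2.36) and Cpa3 was not called (398.8 and 235.3 against 167.9, 114.2 and 353.8 CPM). Mcpt8 was not called with DESeq2 (adjusted p = 0.13). Cpa3 was called lower without stage III replicate 3 (0.0079) and with the replicate number as a block (0.021). Il4 was not called without stage II replicate 2 (0.43) or stage III replicate 2 or 3 (0.072 and 0.073). The list's median ran from -0.45 without stage III replicate 3 to 0.18 without stage III replicate 1. Monocyte and macrophage genes gave 1 higher, Csf1r, and 2 lower of 19 (-0.44, and 0.50 without stage II replicate 1; sums 2624 to 3091 against 2461 to 4240 CPM), Cx3cr1 (27 and 0 counts) and Lyz2 (-2.04) being called lower. Lyz2 was lost without stage II replicate 1 (adjusted p = 0.24) and stage III replicate 1 or 2 (0.064 and 0.071), and Cx3cr1 without stage II replicate 1 or any stage III library (0.060 to 0.078), so that neither was called without stage II replicate 1 or stage III replicate 1 or 2. Erythroid genes gave 0 higher and 3 lower (Rhd, Car2, Tfrc) of 13 (-1.37, and 1.33 with 1 lower without stage II replicate 1; 167 to 191 against 78.2 to 139 CPM), dendritic cell genes 0 and 2 (Flt3, Irf8) of 10 (-1.59; 74.8 to 97.6 against 52.8 to 155 CPM), megakaryocyte genes 1 (Itgb3) and 1 (Gp5) of 9 (0.80, and -0.13 on the 5 libraries alone; 929 to 996 against 896 to 995 CPM) and B lineage genes 1 (Cd79a) and 0 of 11 (0.13, and -1.27 without stage III replicate 3; 52.3 to 128 against 69.0 to 105 CPM). The call of Car2 was lost without stage II replicate 1 (adjusted p = 0.25), that of Tfrc without stage II replicate 2 (0.13) that of Rhd without stage II replicate 1 (0.77) or stage III replicate 2 or 3 (0.15 and 0.13) and that of Irf8 without stage II replicate 1 (0.35) or stage III replicate 1 or 2 (0.14 and 0.13). Flt3 lost its call when any of the 5 libraries was left out (0.052 to 0.14), and Cd79a without stage II replicate 2 (0.37) or any stage III library (0.063 to 0.064). T, NK and innate lymphoid genes (3 tested; 6.45 to 7.80 against 8.15 to 15.0 CPM) and stromal genes (2 tested; 31.4 to 70.5 against 24.7 to 59.5 CPM) had none called. In sorted bulk samples, fewer cells of a type and less RNA per cell cannot be told apart.

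The same step was measured under anti-IL5 in 5 other libraries, so the question of whether IL-5 neutralisation alters it can be tested. There 4887 genes were called (39.5%), 2450 higher (19.8%) and 2437 lower (19.7%). Of the isotype calls 3710 were also called under anti-IL5, all in the same direction, which is 80.8% of the isotype calls and 75.9% of the anti-IL5 calls. Both steps cross from 1 run of library serial numbers to the other, and what the runs mark cannot be told apart from stage in either arm. Over genes, which are not independent replicates, the fold changes of both steps correlated with Pearson's r = 0.61 and Spearman's rho = 0.77.

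No gene was called for the difference between the steps (0 of 12387, 0.0%; edgeR interaction term, smallest adjusted p = 0.46; 713 genes at an unadjusted p under 0.05). limma-voom called 0 and DESeq2 called 16, of which 15 had a more positive log2 fold change under isotype than under anti-IL5. The median SE of a difference was 0.42 log2 units, so many smaller differences were not detectable with these libraries. The 5 genes of smallest p in the edgeR test, which called none of them, were Spc24, Cpa3, Wdr77, Racgap1 and Ncaph. All 5 were among the 16 that DESeq2 called (adjusted p = 0.020, 0.0030, 0.020, 0.025 and 0.035). Spc24, a kinetochore gene (chr9:21755442-21760303, minus strand), read 195.1 and 211.9 CPM and then 45.8, 40.8 and 66.5 CPM under isotype, and 244.8 and 235.4 CPM and then 24.2, 25.4 and 20.3 CPM under anti-IL5 (log2 -1.996 and -3.37, difference 1.37, SE 0.28, adjusted p = 0.46). Cpa3, a mast cell and basophil carboxypeptidase gene, gave log2 values of -0.58 and -3.26. Among lists, S phase genes had a median of -1.71 under isotype and -2.45 under anti-IL5 (65 of 71 lower in both), G2/M genes -1.50 and -2.80 (67 and 74 of 77 lower) and histone genes -1.88 and -2.84 (48 and 53 of 56 lower), differences of lists that were not tested.

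Granule genes under anti-IL5 gave Epx 15685 and 11243 CPM at stage II and 5370, 5642 and 3081 CPM at stage III (log2 -1.52, adjusted p = 0.0019), beside -0.62 under isotype (difference 0.90, SE 0.52, adjusted p = 0.97). Prg2 gave -0.82 (adjusted p = 0.037) beside -0.40. The IL-5 receptor gene Il5ra was called higher under anti-IL5 (log2 0.86, adjusted p = 0.0026) and not under isotype (0.28), and Pim1, a STAT5 target, likewise (1.44 and 0.14), with adjusted p = 0.90 and 0.75 for the differences, so neither is shown to differ. Gata2 rose under isotype (1.41) and was not called under anti-IL5 (0.28; difference 1.13, SE 0.35, adjusted p = 0.66).

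**Figure D5:**
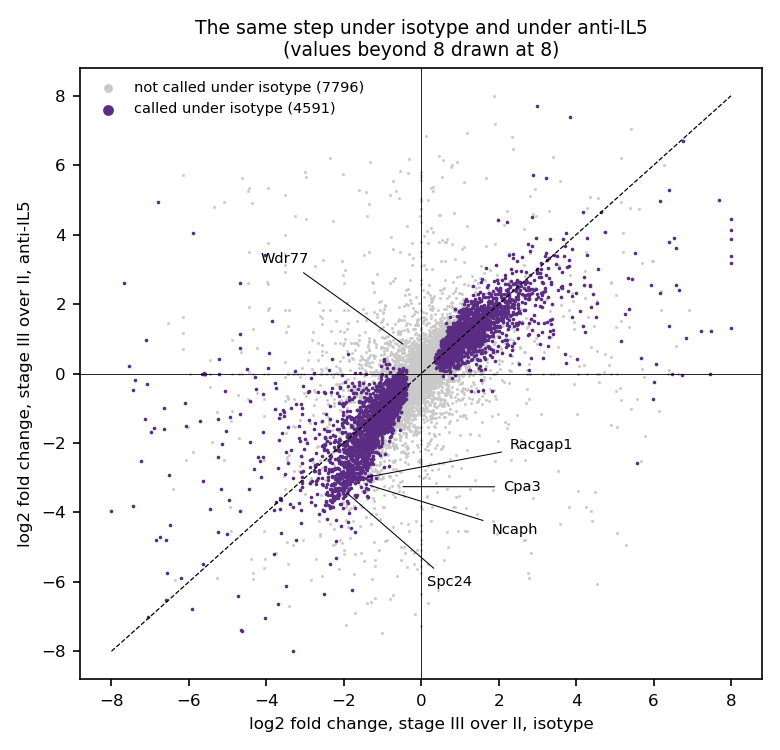
Each point is a gene, with its log2 fold change of stage III over stage II under isotype on the x axis and under anti-IL5 on the y axis. Purple points were called under isotype (4591), grey points were not, and the dashed line marks equal change. The 5 named genes have the smallest p for the difference in the edgeR test, which called no gene, and DESeq2 called all 5.

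Beside its neighbours in the isotype arm, with which it shares libraries, the step called more genes than stage I to II (1319, 10.6%) and about as many as stage III to IV (4165, 33.6%). The counts depend on the number of libraries, which is 5 for each of the first 2 steps and 6 for the last. Among these steps, only that from stage II to III crosses between the runs of library serial numbers. What the runs mark cannot be told apart from that step, so the counts do not rank the steps by their amount of maturation. For the members named here the stage means give the order: Cdk4 went from 360.0 CPM at stage I to 259 at stage II, 67.4 at stage III and 24.2 at stage IV. Hspa5 was called lower at each of the 3 steps, from 3856 CPM at stage I to 502.6 CPM at stage IV. Mxd1 was 35.9 CPM at stage I and 689.2 CPM at stage IV, and its step from III to IV did not pass (log2 -0.22, adjusted p = 0.32).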

How the data were processed

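The authors deposited raw read counts per gene symbol for each of 22 libraries (24982 genes). Per the labels' protocols, SMART-Seq v4 (17 cycles) and Nextera XT made libraries that carry no strand information, and no molecular barcodes are named, so counting intervals and floors cover counting error only. STAR 2.6.1a, mm10 and DESeq2 are named in the submitters' processing notes without a role. How reads were counted, and on which annotation, is not given in the sources used here, so reads of overlapping or antisense genes cannot be told apart. Reads outside genes (13.6% to 19.8% of counts in the 5 libraries) and ambiguous reads (2.11% to 2.39%) were left out of library sizes and tests.

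Counts were tested with edgeR 4.0.16 (R 4.3.3; filterByExpr, TMM, robust quasi-likelihood) in 1 fit of all 22 libraries with 8 stage and treatment groups, so that 2 and 3 libraries share 1 estimate of the spread. Stage III minus stage II, the same step under anti-IL5, and their difference were contrasts, with p-values adjusted over 12387 genes (Benjamini-Hochberg) and a threshold of 0.05. SE is the log2 fold change divided by the root of F. A floor of 3 counts over the group bounds a fold against 0 counts. Counting intervals of ratios are exact at the 95% level. The code was tested on simulated data. Alternatives were RLE size factors, no or a stricter filter, limma-voom (limma 3.58.1), DESeq2 1.42.0, a replicate block, only the 5 or the 11 isotype libraries, and each library left out. Named genes were the 15 largest rises and falls among called genes with at least 10 CPM and no overlap, the 5 largest CPM differences each way, up to 4 called members per list, a fixed list, sort markers, and genes of smallest p for the difference. Other list members were named after their values were seen. Positions are from GENCODE M21 (GRCm38). Promoters are the first of each symbol in a RefSeq table. Members and lists were chosen with earlier results of these data known.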

Additional observations from a re-analysis of the deposited data

How the results depend on the processing

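Of 211 named genes 192 were called, 146 of them in every alternative fit, 46 lost the call in at least 1, and none of the called genes changed direction. The step gave 4591 called genes, and 2951 when fitted on the 5 libraries alone (11108 genes tested, fewer libraries for the spread). Leaving out 1 library gave 3527 to 4654 calls, and the other alternatives 4211 to 4955. RLE size factors turned the split from 2355 higher and 2236 lower to 2199 and 2403. The difference between the isotype and anti-IL5 steps gave 0 calls by edgeR and 16 with DESeq2. Leaving out 1 library gave 0 to 4: the 4 without stage II isotype replicate 1 were Arl4c, Trp53bp2, Tcp11l2 and Retnlg, and the 2 without stage II anti-IL5 replicate 2 were Snx18 and Gpam (the cause was not tested). Genes that were not called changed sign without stage II replicate 2 (Gata1, Myb, Cdkn2d, Bcl2l11), without stage II replicate 1 (Ear1) or without replicate 1 of stage II or III (Pim1). Leaving out 1 library moved Gata1 from -0.1284 to 0.3375, Myb from -0.7226 to 0.07709, Cdkn2d from -0.03674 to 0.4649, Bcl2l11 from -1.429 to 0.06671, Ear1 from -0.2841 to 0.08325 and Pim1 from -0.0564 to 0.3944. With the replicate number as a block 4955 genes were called. Equal numbers correlated at 0.03 and 0.15 between stages II and III, where only 2 pairs exist, so the main test has no block. In the same arm they correlated at 0.12, 0.14 and 0.20 between stages I and III and at 0.12, 0.16 and 0.21 between stages III and IV, and libraries of 1 treatment with the same number carry a common tag in their deposited names, whose meaning is not stated. The block moved the interferon median from 2.22 to 1.22, gained calls for Ccnd2, Ccnd3 and Cpa3 among the named genes, and lost those of Elane, Bcl2 and Cebpa (adjusted p = 0.060, 0.056 and 0.058). Of 19 named genes not called, Kit, Ccnd2, Ccnd3, Cpa3 and Wdr77 were called in at least 1 alternative. Counts of list members without stage III replicate 3 were chosen after seeing the data: of 35 lists with at least 5 members called one way, 1, the interferon list, moved by over 1.5 times. When each of the 5 libraries was left out in turn, 16 of the 35 lists moved by over 1.5 times in at least 1 fit. The median of 8 of 45 lists changed sign in some alternative: those of erythroid, monocyte and macrophage, mature neutrophil, basophil and mast cell, megakaryocyte, B lineage, T and NK, and proapoptotic genes. The depth of 7161264 to 12499837 counts and 2 stage II libraries limit small differences.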
